A study of Danio rerio with 12 samples.

Results

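The genes described here are 10 zebrafish clock output genes: the Rev-erb receptor genes nr1d1, nr1d2a, nr1d2b, nr1d4a and nr1d4b, the PAR bZIP genes tefa, tefb, dbpa and dbpb, and the repressor gene ciartb. They were chosen by symbol, and all 10 are among the 25004 genes listed in both deposited tables. The tables come from poly(A) RNA of zebrafish larvae given broflanilide, a diamide-type insecticide that acts on insect GABA receptors, in the solvent DMSO. The 12 libraries fall into 5 controls with DMSO alone, 4 at the low dose of 1 µg/L and 3 at the high dose of 10 µg/L. All groups share the tissue label larvae and the DMSO solvent. The sources used here do not give the strain, the age of the larvae, the length of exposure, the hour of sampling or the number of larvae in each library. Nothing in the labels says that libraries came from separate clutches or tanks, so each p-value reflects differences among libraries that may be technical in origin.

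The circadian clock is a feedback loop in which Clock and Bmal proteins activate genes through E-boxes, and the Period and Cryptochrome proteins that result switch them off again. Rev-erb receptors are nuclear receptors that bind heme and repress genes with a ROR element, Bmal genes among them, and ROR receptors activate through the same element. PAR bZIP proteins activate genes through D-boxes, and in zebrafish D-boxes also carry light signals to clock genes and DNA repair genes. Both families pass the rhythm on to metabolism, and their own transcripts normally swing widely over the day. Most zebrafish tissues hold a clock of their own that light can set directly.

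Library totals lay between 10721597 and 16380300 counts. Levels are given as CPM, the read count scaled to a common library size, with TMM factors that correct for differences in library composition. Low dose replicate 4, control replicate 2 and control replicate 3 stood apart in an earlier analysis of these data. Test results that rest on them are mostly given with and without them. Correlations are given with and without low dose replicate 4 only. In low dose replicate 4, 38 of 13834 genes averaging 50 counts or more were over 20 times below every other library, against 18 genes in control replicate 3, 6 in control replicate 2 and 0 or 1 in each of the other libraries. In 1 of the 38, si:dkey-110c1.10, the nearest other library held only 1 count. Genes over 4 times below every other library numbered 121 in low dose replicate 4, 137 in control replicate 3 and 63 in control replicate 2. Each of the other libraries had 0 to 4. Low dose replicate 4 also had 10 genes over 4 times above every other library, and each other library had 0. As for the tissue label, markers of lens, photoreceptors, pineal, exocrine pancreas, liver, muscle, dividing cells and neurons were present, and no listed marker found in the tables was at 0 in all libraries. RNA came from whole larvae, so fewer cells of a type and less RNA per cell cannot be told apart.

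Per length, 4 of the 10 genes formed an upper tier. In controls the level in FPKM, the authors' value per kilobase of transcript, was 117.5 ± 19.5 for nr1d2b, 108 ± 16.2 for nr1d2a, 108 ± 15.7 for tefa and 91.6 ± 11.6 for nr1d1 (SD, n = 5 each). The next level, 46.9 ± 15.7 FPKM, belonged to tefb, followed by 16.8 ± 7.15 FPKM for dbpa, 9.23 ± 0.611 FPKM for dbpb and 7.72 ± 2.53 FPKM for ciartb. The lowest levels were 1.57 ± 0.721 FPKM for nr1d4b and 1.21 ± 1.01 FPKM for nr1d4a. Neighbours in this order overlapped over the 5 controls except at the step from nr1d1 to tefb and at the step from ciartb to nr1d4b. Over all 5 controls, control replicate 3 included, the spread was mostly larger at lower levels. The coefficient of variation of FPKM was 12.7% to 16.6% in the upper 4 genes, 33.4% for tefb and 42.6% for dbpa. It was 32.8% for ciartb, 45.9% for nr1d4b and 83.8% for nr1d4a. The exception was dbpb, with 6.62%.

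**Figure D1:**
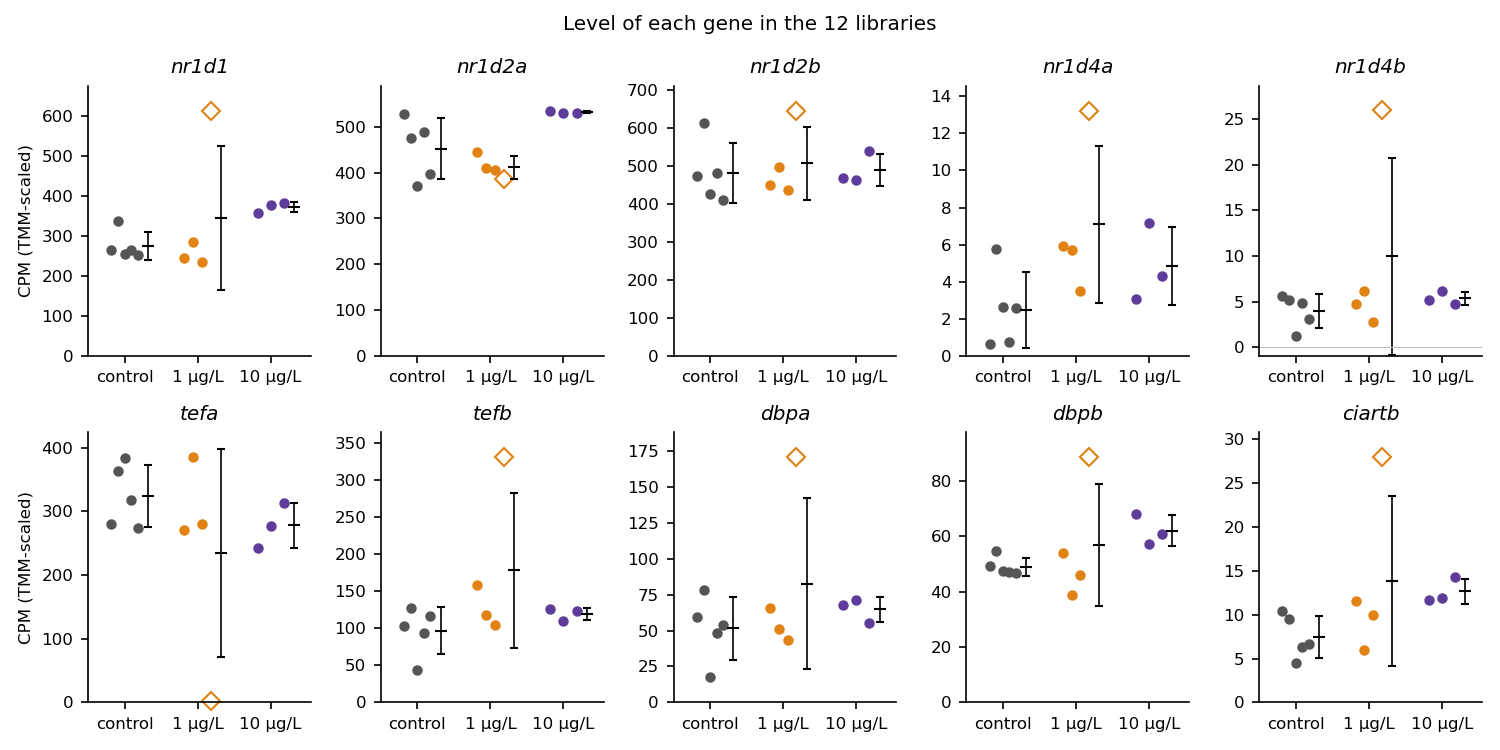
Levels of the 10 genes in CPM (vertical axes, linear, a separate scale for each gene) in 5 control, 4 low-dose (1 µg/L) and 3 high-dose (10 µg/L) libraries. Circles are libraries, the open diamond is low dose replicate 4, and bars give mean ± SD; the diamond is the highest of 12 in 8 genes and the lowest in tefa, at 2.29 CPM.

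Among the Rev-erb genes, nr1d1 encodes Rev-erb alpha and maps to chromosome 3 (23488652 to 23496223, GRCz11, plus strand, ENSDARG00000033160). The controls held 266, 336, 255, 265 and 253 CPM of nr1d1 in replicates 1 to 5. The low-dose libraries held 244, 285, 235 and 614 CPM, and the high-dose libraries 358, 378 and 382 CPM. All high-dose libraries were above all controls, whereas 3 of the 4 low-dose libraries lay within or just below the control range and replicate 4 lay far above it. At the high dose the log2 fold change was 0.44 (SE 0.17), with an unadjusted p of 0.0220 and an edgeR adjusted p of 1.00 over all genes tested, which does not pass the threshold of 0.05. At the low dose it was 0.32 (SE 0.27), and without replicate 4 it was -0.11 (SE 0.17).

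The Rev-erb beta genes nr1d2a and nr1d2b are duplicates that lie on chromosome 16 (50089417 to 50111057, plus strand, ENSDARG00000003820) and chromosome 19 (17400263 to 17407115, plus strand, ENSDARG00000009594). Levels of nr1d2a were 528, 476, 370.2, 489 and 397 CPM in controls, 445, 411, 405 and 386 CPM at the low dose and 535, 530.2 and 530.03 CPM at the high dose. Every high-dose library was above every other library, although the distance to control replicate 1 was small and in FPKM the high-dose minimum of 125.7 lay below the 126.8 of that control. The low-dose libraries all lay below the control mean of 452 CPM and within the control range. Against control, nr1d2a differed on the log2 scale by 0.23 (SE 0.18) at 10 µg/L and by -0.14 (SE 0.17) at 1 µg/L. Unlike the 8 genes that peaked there, nr1d2a lay within the range of the other libraries in low dose replicate 4. Its duplicate nr1d2b showed little difference: controls ran from 410.1 to 612 CPM, and the high-dose libraries, at 468, 461 and 538 CPM, lay inside that range. The low-dose libraries held 450, 495, 437 and 645 CPM of nr1d2b, and its log2 fold change was 0.08 (SE 0.19) at 1 µg/L and 0.02 (SE 0.19) at 10 µg/L.

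The fish Rev-erb genes nr1d4a (chromosome 23, 35795759 to 35821521, minus strand, ENSDARG00000031161) and nr1d4b (chromosome 11, 1944729 to 1967438, minus strand, ENSDARG00000059370) were the least abundant of the 10. Controls held 9, 81, 25, 8 and 40 counts of nr1d4a, or 0.664, 5.77, 2.61, 0.730 and 2.604 CPM. The low-dose libraries held 5.91, 5.72, 3.48 and 13.2 CPM of nr1d4a and the high-dose libraries 3.04, 7.14 and 4.29 CPM. All treated libraries were above the control median, and control replicate 2 was as high as most of them. The log2 fold change of nr1d4a was 1.51 (SE 0.60, unadjusted p 0.0273) at 1 µg/L and 0.95 (SE 0.64, unadjusted p 0.164) at 10 µg/L. Without low dose replicate 4 the low-dose value was 1.02 (SE 0.62), and without control replicate 2 the values were 2.102 at 1 µg/L and 1.54 at 10 µg/L. At 10 µg/L nr1d4a had 0.56 without high dose replicate 2, 1.82 without control replicates 2 and 3 and 1.68 with limma weights. For nr1d4b, controls held 5.68, 5.20, 1.25, 4.83 and 3.06 CPM, the low-dose libraries 4.79, 6.21, 2.80 and 26.0066 CPM, and the high-dose libraries 5.16, 6.18 and 4.77 CPM. Only low dose replicate 4 was far outside, and its 466 counts make nr1d4b 1 of the 10 genes mentioned above. The low-dose log2 fold change of nr1d4b was 1.31 (SE 0.61) with that library and 0.20 (SE 0.48) without it, and the high-dose value was 0.42 (SE 0.44), or 0.20 without control replicate 3. One gene on the other strand, CT573157.1, overlaps nr1d4b, with at most 5 counts in any library, and no other gene in the tables overlaps any of the 10.

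Of the PAR bZIP genes, tefa encodes thyrotroph embryonic factor a and maps to chromosome 12 (19144833 to 19153177, minus strand, ENSDARG00000039117). Its level was 281, 363, 383, 317 and 275 CPM in controls, 271, 385, 281 and 2.29 CPM at the low dose and 243, 278 and 314 CPM at the high dose. The other 11 libraries lay within 1.59-fold of each other, and low dose replicate 4 stood far below all of them. That library held 41 counts of tefa and the other libraries 2904 to 5527, and on the CPM scale the lowest of the others was 106 times higher. The low-dose log2 fold change of tefa was -0.46 (SE 0.77) with that library and -0.05 (SE 0.19) without it. Without low dose replicate 2 it was -0.81. At the high dose it was -0.22 (SE 0.19), and the high-dose libraries overlapped the controls. That value was -0.13 without high dose replicate 1 or with limma weights and -0.063 without control replicates 2 and 3.

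Genes next to tefa were also low in low dose replicate 4. This region was looked at after the values of tefa were seen. Within 200 kb of the tefa start there are 16 other genes averaging 10 counts or more, of which 12 were below every other library in low dose replicate 4 and 1 was above; over all genes tested that library was the lowest in 19.3% and the highest in 20.4%. The RNA-binding protein gene csdc2a had 0 counts there, against 801 to 1403 in the others. The gene pdap1a had 6 counts there, against 471 to 766. The splicing factor gene phf5a, next to tefa, had 0 counts, against 79 to 205. Farther away the genes varied. On one side kctd17, at 117 kb, was 8.21 times below the lowest other library, and l3mbtl2, at 182 kb, 4.82 times below. On the other side csnk1e, a kinase gene of the clock that starts 152 kb away, was at 41.6 CPM against 97.4 to 157 CPM, and tnrc6b, 128 kb away, lay within the range of the others. Around the other genes the largest counts of neighbours below every other library were 4 of 6 for nr1d2b, 4 of 7 for dbpb and 4 of 12 for nr1d4a, and the counts for the remaining 6 ran from 0 to 2. The median log2 ratio of the neighbours to the other libraries was -3.57 around tefa, -1.03 around dbpb and -0.64 around nr1d2b. Other neighbours were high in low dose replicate 4. Those above every other library numbered 3 of 4 around nr1d4b, 3 of 5 around tefb and 4 of 12 around nr1d4a. The medians around these genes were 0.99, 0.86 and -0.30, in that order. Around the rest of the 10 genes, 0 or 1 neighbour was above. Of the 38 far-below genes of that library, 5 lie within 200 kb of the tefa start, tefa included. By chromosome, 6 of the 38 lie on chromosome 12, 7 on chromosome 4, 6 on chromosome 14 and 5 on chromosome 22. Other far-below genes also lay side by side, such as tapt1b and ldb2b on chromosome 1 and camkvb and sema3fb on chromosome 11. A local shortfall in that library was thus not particular to tefa. The cause of the local shortfalls, around tefa and elsewhere, and of the high neighbours was not tested.

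**Figure D2:**
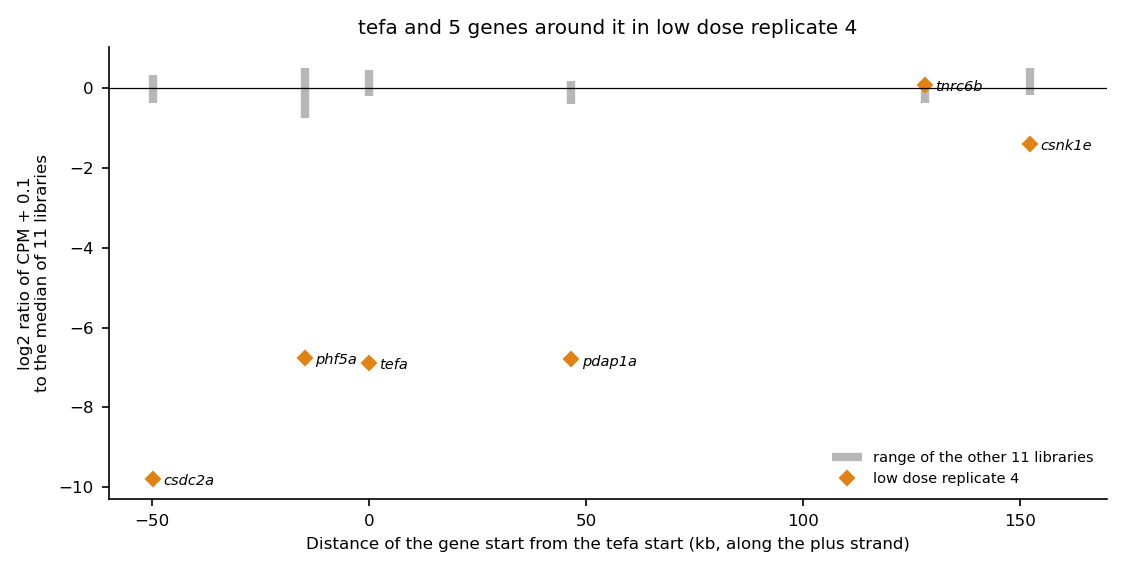
The gene tefa and 5 of the genes around it that are named above. The horizontal axis gives the distance of each gene start from the tefa start in kb along the plus strand, and the vertical axis the log2 ratio of CPM plus 0.1 to the median of the 11 other libraries; grey bars span those 11 libraries and diamonds show low dose replicate 4, which is far below them at csdc2a, tefa, phf5a and pdap1a and within the range at tnrc6b.

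The duplicate tefb (chromosome 3, 5052822 to 5067585, minus strand, ENSDARG00000098103) was high in that same library. Controls held 102, 128, 44.3, 93.1 and 117 CPM of tefb, the low-dose libraries 159, 117, 104 and 331 CPM, and the high-dose libraries 126, 109.6 and 122 CPM. Low dose replicate 4 was at 2.84 times the median of the other libraries, and control replicate 3 was the lowest of all 12. All treated libraries lay above the control median of 102 CPM, yet at both doses the groups overlapped. The log2 fold change of tefb was 0.88 (SE 0.36, unadjusted p 0.0305) at the low dose, 0.39 (SE 0.29) without low dose replicate 4, and 0.30 (SE 0.28) at the high dose, or 0.12 without control replicate 3.

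D-box binding proteins a and b are encoded by dbpa (chromosome 19, 10177115 to 10196370, minus strand, ENSDARG00000063014) and dbpb (chromosome 16, 13599693 to 13613475, minus strand, ENSDARG00000057652). Levels of dbpa were 59.3, 78.1, 17.9, 48.2 and 53.9 CPM in controls, 65.6, 50.8, 43.5 and 171 CPM at the low dose and 67.9, 71.6 and 55.1 CPM at the high dose. As with tefb, control replicate 3 was lowest and low dose replicate 4 highest of the 12, at 0.316 times the median of the other controls and 3.10 times the median of the other libraries. The low-dose log2 fold change of dbpa, 0.68 (SE 0.43), was 0.05 (SE 0.35) without low dose replicate 4, and the high-dose value, 0.33 (SE 0.34), was 0.12 without control replicate 3 and 0.53 without control replicate 2. In contrast, dbpb was even across controls, at 49.1, 54.6, 47.5, 47.2 and 46.8 CPM. The high-dose libraries, at 68.2, 57.1 and 60.8 CPM, were all above them, and the low-dose libraries were at 54.1, 38.8, 46.2 and 88.7 CPM. At the high dose dbpb had a log2 fold change of 0.34 (SE 0.15, unadjusted p 0.0412, edgeR adjusted p 1.00). At the low dose its value was 0.22 (SE 0.22), or -0.08 (SE 0.16) without replicate 4.

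The repressor gene ciartb maps to chromosome 25 (26669680 to 26673570, minus strand, ENSDARG00000088171); in mouse the Ciart protein binds Clock and Bmal1 and represses them. Controls held 10.4, 9.47, 4.49, 6.29 and 6.64 CPM of ciartb, the low-dose libraries 11.5, 5.93, 9.96 and 28.0 CPM, and the high-dose libraries 11.7, 11.9 and 14.3 CPM. The high-dose libraries were above every control, and the low-dose libraries were spread over and beyond the control range. The log2 fold change of ciartb was 0.76 (SE 0.30, unadjusted p 0.0266, edgeR adjusted p 1.00) at the high dose and 0.62 without control replicate 3. At the low dose it was 0.89 (SE 0.41, unadjusted p 0.0517), and without replicate 4 it was 0.29 (SE 0.34).

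Set against all genes, 0 of the 10 passed the threshold at the low dose by edgeR (adjusted p 0.924 to 0.963), where 0% of 18811 genes did. At an unadjusted p under 0.05, 2 of 10 were higher, nr1d4a and tefb, against 2.09% of all genes, and 0 were lower, against 1.8%. DESeq2 gave 4 of 10 higher at that level (2.79% of all genes) and limma with sample quality weights 1 of 10 (2.41%). Neither called a member, and over all genes DESeq2 called 1 and limma 0. With edgeR the count was 0 of 10 without low dose replicate 4 (0.569% of all genes) and 0 without control replicate 4 (360 of 18862 genes). It was 1 without control replicate 3 (454 of 18898 genes). It was 4 without low dose replicate 2 (601 of 18836 genes) and 4 without low dose replicate 3 (418 of 18869 genes). The median log2 fold change of the 10 genes was 0.50, with 8 above 0, against 0.0013 and 50.2% over all genes. Without low dose replicate 4 the median was -0.0019 and 5 of 10 were above 0. In 0 of 10 genes did the low-dose libraries lie wholly above the controls (0.707% of all genes). Low dose replicate 4 was the highest of the 12 libraries in 8 of 10 genes, and over all 18786 genes tested on 12 libraries it was highest in 20.4%. Many pairs of the 10 genes varied together, so these counts are not of independent genes.

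At the high dose 0 of the 10 passed by edgeR, where 0% of 18618 genes did. At an unadjusted p under 0.05, 3 of 10 were higher (nr1d1, dbpb and ciartb) against 1.07% of all genes, and 0 were lower, against 0.929%. DESeq2 also gave 3 (1.18% of all genes) and limma 4 (2.74%) at that level. Either method called 0 members, and over all genes DESeq2 called 4 and limma 2. All high-dose libraries lay above all controls in 4 of 10 genes (nr1d1, nr1d2a, dbpb and ciartb), against 1.4% of all genes, and without control replicates 2 and 3 in 5 of 10, against 5.61%. The median log2 fold change was 0.34, with 9 of 10 above 0, against -0.0032 and 49.5% over all genes. The median was 0.18 without control replicate 3 and was 0.47 without control replicate 2. With edgeR the count of 3 was 0 without control replicate 5 (192 of 18514 genes) and 0 without high dose replicate 3 (64 of 18655 genes). With the replicate number added as a block it was also 0 (196 of 18618 genes). It was 1 without control replicate 4 (169 of 18673 genes) and 1 without high dose replicate 2 (134 of 18645 genes). Without control replicates 2 and 3 together it was 4, against 2.59% of all genes. Here too the counts are not of independent genes. In the authors' deposited tables, the adjusted p of the 10 genes is 0.983 at 1 µg/L and 1.00 at 10 µg/L.

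**Figure D3:**
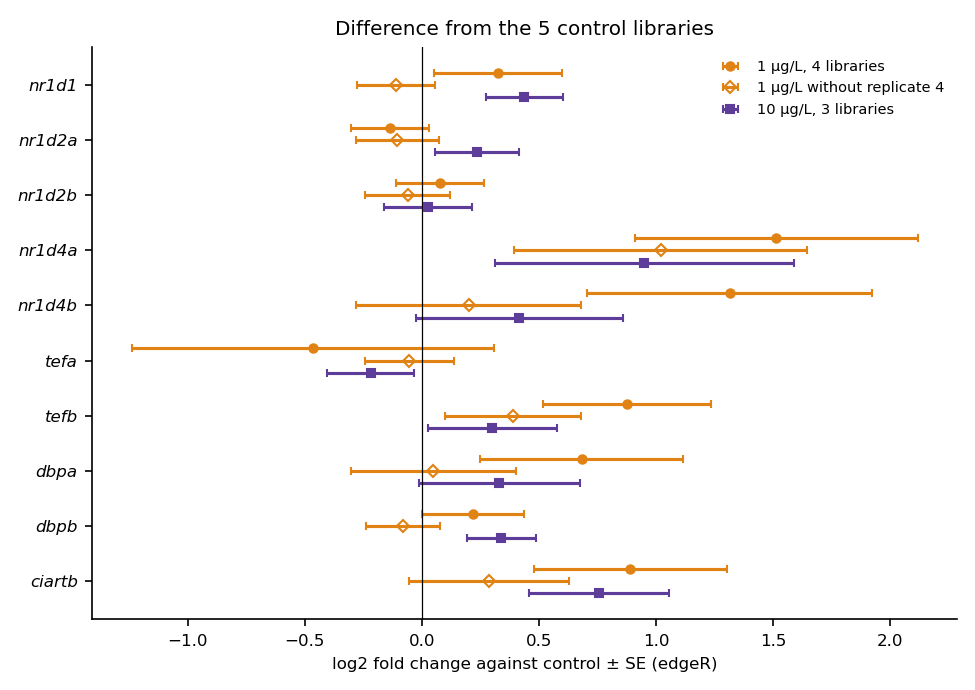
Log2 fold change against the 5 controls (horizontal axis, edgeR, bars are ± SE) for each of the 10 genes at 1 µg/L with 4 libraries, at 1 µg/L without replicate 4, and at 10 µg/L with 3 libraries. In the 8 genes that peaked in replicate 4 the low-dose value was lower without that library, which follows from leaving out their highest value. The high-dose values ran from -0.22 for tefa to 0.95 for nr1d4a.

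Both comparisons share the same controls, so the doses were also compared directly. Of the 10 genes 0 passed by edgeR (0% of 18786 genes). The smallest p was that of nr1d2a, with a log2 difference of 0.37 (SE 0.17, unadjusted p 0.0461, edgeR adjusted p 0.953) between the high and the low dose, and this was the 1 of 10 genes with an unadjusted p under 0.05, against 2.43% of all genes; DESeq2 gave 1 (2.5%) and limma 2 (4.22%). It was also the 1 of 10 with all high-dose libraries above all low-dose libraries, against 3.84%. That edgeR count of 1 at an unadjusted p under 0.05 was 0 without control replicate 4 or 5, low dose replicate 1, 2 or 3, or any of the high-dose libraries. Over all genes, the number higher at that level in those fits ran from 153 of 18795 without high dose replicate 3 to 673 of 18772 without low dose replicate 2. Without low dose replicate 4, nr1d1 was 0.55 higher at the high dose (SE 0.17, unadjusted p 0.00642), dbpb was 0.42 higher (SE 0.17, unadjusted p 0.0235) and nr1d2a 0.34 higher (SE 0.18, unadjusted p 0.0800). Those 2 of 10 genes with an unadjusted p under 0.05 compare with 1.74% of all genes, and 4 of 10 genes then did not overlap, against 5.83%; with edgeR the smallest adjusted p of the 10 was 1.00.

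The 40 other clock, light and pineal genes tested on all 12 libraries were also set beside low dose replicate 4 and control replicate 3. Low dose replicate 4 was the highest library in 18 of the 40 and control replicate 3 the lowest in 19 of the 40, against 20.4% and 22.2% of all genes. Of the 14 core loop genes, 9 were highest in low dose replicate 4 and 9 lowest in control replicate 3, and of 7 other bZIP and output repressor genes the counts were 6 and 4. Among the 4 ROR receptor genes, which activate where Rev-erb represses, 0 were highest in low dose replicate 4 and 3 were lowest in control replicate 3.

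None of these genes passed at either dose by edgeR, and at an unadjusted p under 0.05 the counts were 0 at 1 µg/L and 2 at 10 µg/L (nfil3-6 higher, xpc lower). Over all genes at that level, 2.09% were higher and 1.8% lower at 1 µg/L, and 1.07% and 0.929% at 10 µg/L. A log2 fold change above 0 was found in 50.2% of all genes at 1 µg/L and 49.5% at 10 µg/L. At the low dose 12 of 14 core loop genes had a log2 fold change above 0, with a median of 0.30, or 0.04 without low dose replicate 4. The period gene per1a, a repressor of the loop, was at 197 CPM in that library and between 25.8 and 69.3 CPM in all others, with log2 fold changes of 0.89 (SE 0.45) with it and 0.05 without it. The values with and without that library were 0.48 and 0.10 for per1b, 0.58 and 0.04 for the cryptochrome gene cry2, and 0.58 and 0.35 for the Bmal1 gene arntl1b. All 7 other bZIP and output repressor genes were above 0 at the low dose, with a median of 0.50 that was 0.03 without low dose replicate 4. The repressor gene bhlhe41 was at 0.85 with it and -0.03 without it, and hlfa, another PAR bZIP gene, at 0.73 and 0.13. In the nfil3 genes, related to the mammalian repressor NFIL3 that competes for D-boxes, the values with and without that library were 0.61 and 0.60 for nfil3-5 and 0.50 and 0.26 for nfil3-6.

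At the high dose 4 of 14 core loop genes were above 0, with a median of -0.07. The smallest p belonged to cry1bb at -0.32 (SE 0.21), per1a at 0.33 (SE 0.28), cry1ab at -0.13 (SE 0.15) and per2 at -0.18 (SE 0.23). Of the other bZIP and repressor genes 3 of 7 were above 0, with nfil3-6 at 0.63 (SE 0.28, unadjusted p 0.0440), bhlhe40 at 0.27 (SE 0.21), hlfa at 0.16 (SE 0.30) and hlfb at -0.27 (SE 0.48). The casein kinase gene csnk1db, whose product acts on Period proteins, was above every control at the high dose, at 0.31 (SE 0.15, unadjusted p 0.0601). Over all genes, 1.4% had all high-dose libraries above all controls. The DNA repair gene xpc was at -0.54 (SE 0.19, unadjusted p 0.0155). All 4 light-induced genes were below 0, and 49.5% of all genes were above 0. Heme synthesis gene alas1 and heme oxygenase gene hmox1a, of the ligand of Rev-erb, were at 0.06 (SE 0.29) and 0.29 (SE 0.57). Between the doses the photoreceptor and pineal factor gene crx was 0.54 higher at the high dose (SE 0.22, unadjusted p 0.0291). Over all genes, 2.43% were higher at an unadjusted p under 0.05 in that comparison. The gene arntl1b had a log2 difference of -0.78 (SE 0.37, unadjusted p 0.0540).

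**Figure D4:**
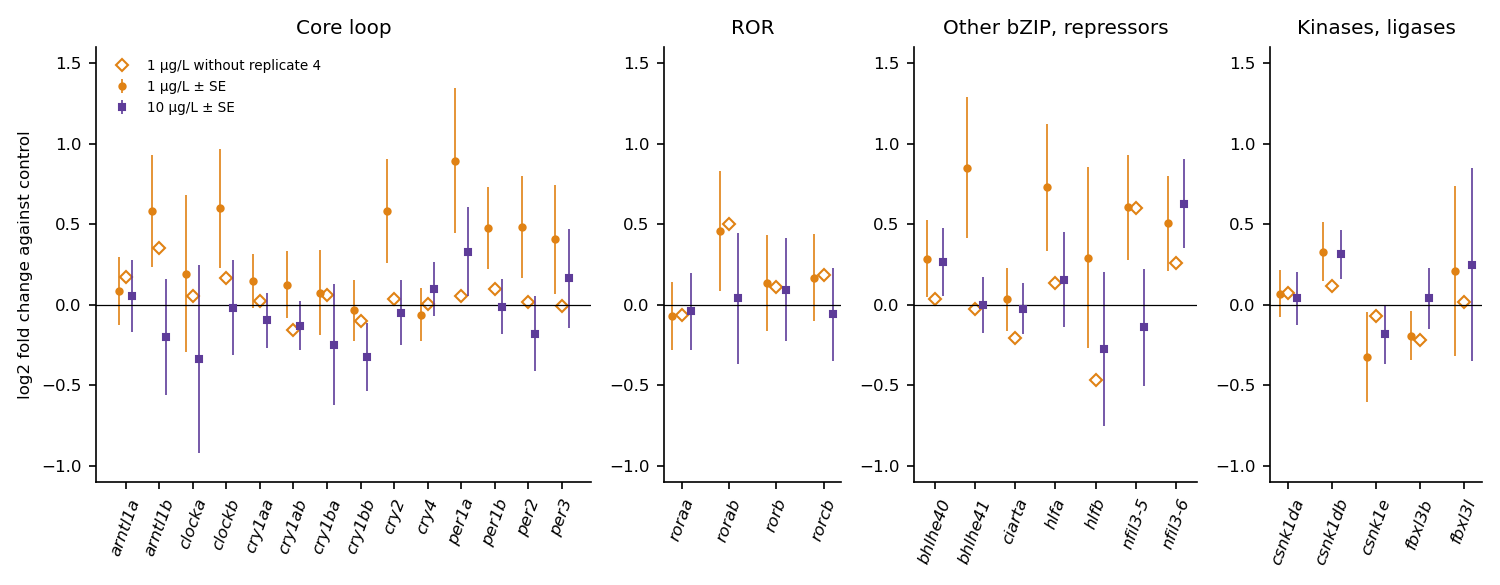
Log2 fold change against control (vertical axis, edgeR, bars are ± SE) of other clock genes in 4 classes, at 1 µg/L, at 1 µg/L without replicate 4, and at 10 µg/L. Open diamonds lie nearer to 0 than filled circles for per1a, per1b, cry2, bhlhe41 and hlfa.

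Markers of some other tissues, but not of all, also stood apart in the same libraries. The summed level of 16 of the 17 listed lens marker genes was 7268 CPM in low dose replicate 4, against 836 to 1745 CPM in the other low-dose libraries, 333 to 2578 CPM in controls and 578 to 890 CPM at the high dose. The proliferation markers summed to 95.3 CPM in low dose replicate 4, below all others (166 to 421 CPM). Liver markers summed to 683 to 2412 CPM at the high dose and 260 to 1941 CPM in controls, with control replicate 3 the highest control. At the high dose 9 of 9 tested liver genes had a log2 fold change above 0, against 49.5% of all genes. Exocrine pancreas markers were at 2945 CPM in control replicate 3, against 595 to 1587 CPM in the other controls, and at 3293 CPM in low dose replicate 4, the highest of all libraries. In low dose replicate 4, liver markers (501 CPM) and fast skeletal muscle markers (34105 CPM, controls 14396 to 42582 CPM) lay inside the control range. Neuron markers were at 3254 CPM there, below the control minimum of 3796 CPM, and at 3962 CPM in control replicate 3, inside the control range. Between the doses 13 of 13 photoreceptor markers were higher at the high dose, 8 of them at an unadjusted p under 0.05 and 0 past the threshold. So were 13 of 13 proliferation genes, 5 of them at that level. Of 16 lens genes 0 were higher, and 11 were lower at that level. Over all 18786 genes 48.9% were higher, 2.43% were higher at that level and 385 genes were lower at it. These counts include low dose replicate 4. The median log2 difference of the lens genes was -1.70 with that library and -0.66 without it. For photoreceptor markers the medians with and without it were 0.68 and 0.69, and for proliferation genes 0.78 and 0.58. Genes of 1 list may vary together, so these counts are not of independent genes. The sum of 3 pineal markers ran from 59.8 to 156 CPM in controls, from 66.5 to 160 CPM at the low dose and from 115 to 124 CPM at the high dose. In that sum, as in tefb and dbpa, control replicate 3 was the lowest of the 12 libraries and low dose replicate 4 the highest. Most single genes did not share this order. Of the 5 genes tested from the list of pineal genes, low dose replicate 4 was highest in 1 and lowest in 1, and control replicate 3 was lowest in 1. The part of tissue makeup in the values of the 10 genes was not tested.

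Across the 12 libraries many pairs of the 10 genes varied together, and some went opposite ways. This is a description over libraries that share 3 treatment groups and includes low dose replicate 4. Pearson's r of log2 CPM over the 45 pairs had a median of 0.56, and 0.40 over the 11 libraries without low dose replicate 4. It was above 0.5 in 24 pairs and below 0 in 9, or in 16 and 8 without that library. Spearman's correlation of ranks had medians of 0.43 and 0.39. With the group means removed, the medians of Pearson's r were 0.47 and 0.40. The closest pair was tefb and dbpa, at 0.95 and 0.91, followed by dbpa and nr1d4b, at 0.93 and 0.88. The pair nr1d4b and tefb had 0.90 and 0.78, dbpb and ciartb 0.86 and 0.73, and nr1d1 and dbpb 0.86 and 0.69. By ranks, nr1d4b and tefb had only 0.42 and 0.25, tefb and dbpa 0.76 and 0.68, and dbpa and nr1d4b 0.68 and 0.58. For dbpb and ciartb the rank values were 0.82 and 0.76, and for nr1d1 and dbpb 0.76 and 0.68. Control replicate 3, the lowest control in tefb, dbpa and nr1d4b, was part of every correlation given here, those within groups included. No correlation was computed without it. Within groups over 11 libraries, Pearson's r was 0.95 for tefb and dbpa, 0.86 for dbpa and nr1d4b, 0.77 for nr1d4b and tefb, 0.64 for dbpb and ciartb and -0.031 for nr1d1 and dbpb. Pairs with tefa had a median of -0.74 and -0.44. The gene nr1d2a correlated weakly with nr1d1 over 12 libraries, at 0.13, and at 0.71 over 11; within groups the values were -0.12 and 0.30. Among genes of the other lists hlfa followed tefb at 0.98 and 0.95 and dbpa at 0.96 and 0.92.

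**Figure D5:**
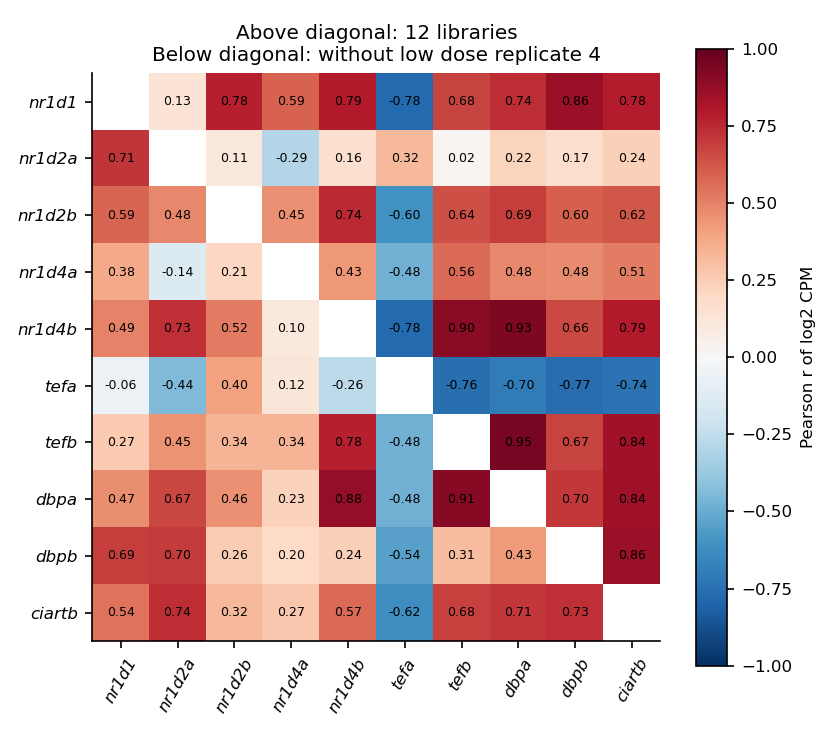
Pearson's r of log2 CPM between the 10 genes (both axes list the genes; color scale from -1 to 1), over 12 libraries above the diagonal and over 11 libraries without low dose replicate 4 below it. The highest cell is tefb with dbpa, at 0.95 above and 0.91 below, and the tefa row and column are mostly negative.

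Of 13709 other genes with a symbol and an average of 50 counts or more, 5 were closest to the mean profile of the 10. Among them were si:ch1073-155h21.2 (Pearson's r 0.968, or 0.960 without low dose replicate 4), clul1 (0.967 and 0.960), faim2b (0.950 and 0.937) and scn12aa (0.942 and 0.939), which encodes a sodium channel. Of these, faim2b is a neighbour of nr1d4b on chromosome 11, within 200 kb. It is among the neighbours of nr1d4b that were above every other library in low dose replicate 4. The level of clul1, a clusterin-like gene, was 27.2 CPM in control replicate 3, 38.7 to 88.6 CPM in the other controls, 107 CPM in low dose replicate 4, 38.8 to 65.3 CPM in the other low-dose libraries and 73.1 to 95.9 CPM at the high dose. Over 11 libraries abi3a (0.949) and lrrtm1 (0.943) were among the closest 5, and faim2b was not. The clock repressor bhlhe40, kept out of that ranking as a listed gene, correlated with the mean profile at 0.88, and 0.89 without low dose replicate 4. All correlations with the mean profile include control replicate 3.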

How the data were processed

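Poly(A) RNA of larvae was sequenced from directional libraries, per the labels' protocols. Per the submitters' processing notes, the tools were fastp, HISAT2, featureCounts and DESeq2, and the build was GRCz11; no versions are given. The sources used here do not state strand use in counting or the treatment of reads that map to several places. The authors deposited raw counts per gene, 1 table for each dose against the same controls, and these were tested. The authors' FPKM, per the file headers, was used for levels between genes: within each library it equals the count over length times a constant. The deposited log2 fold changes, p-values and adjusted p-values were used only where the authors' deposited tables are named. Another 17 per-sample columns, normalized by size factors, were not used.

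The main test was the quasi-likelihood F test of edgeR 4.0.16 (R 4.3.3), with TMM factors, a prior count of 0.125 and genes averaging 10 counts or more. All 10 genes passed that minimum in each comparison. P-values were Benjamini-Hochberg adjusted over all genes tested, with 0.05 as the threshold. The SE of each log2 fold change was computed as its size divided by the square root of F. The difference between doses was fitted on all 12 libraries. Log2 CPM for correlations used a prior count of 1. Alternatives changed the prior count to 2, dropped the filter or raised it to 50 counts on average, took size factors from DESeq2, replaced the test by DESeq2 1.42.0 or by limma 3.58.1 (voom with sample quality weights), added the replicate number as a block, left out 1 library at a time, or left out low dose replicate 4 and control replicates 2 and 3 together. The test was checked on simulated counts that gave every gene the same dispersion and held no libraries standing apart. The changes put in were of 2-fold or more, so the check does not cover smaller changes or such libraries.

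The 10 genes and the lists of other clock genes and tissue markers were chosen with earlier results of these data known. All 10 were named. Up to 4 genes per clock list with the smallest unadjusted p in each comparison could be named, and the 5 genes most correlated with the mean profile of the 10; 1 gene near tefa and 1 of those 5 are not reported here. Genes around tefa and genes far from all other libraries were chosen after their values were seen.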

Additional observations from a re-analysis of the deposited data

Results flagged for a closer look

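In nr1d1, low dose replicate 4 (613.7 CPM) lay apart from the other low-dose libraries, and control replicate 2 (336.3 CPM) lay apart from the other controls. In nr1d4b, low dose replicate 4 (26.0 CPM) lay apart from the other low-dose libraries. These 3 values come from 20 groups examined for a single distant library, and chance flags about 1 in 20 groups. The genes were chosen with earlier results known.

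In nr1d2a, every low-dose library lay below the control mean and every high-dose library above it. The log2 fold change between the doses was 0.37 in edgeR (SE 0.17), with an unadjusted p of 0.0461 and an adjusted p of 0.953, so the difference did not pass.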

How the results depend on the processing

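The number of the 10 genes called was 0 in each comparison under every alternative run, so no alternative ended or made a call. At a mean count of at least 50, nr1d4a dropped out of the high-dose fit. No log2 fold change below passed the threshold, so a change of sign is a change within error. At the low dose the sign turned with limma weights for nr1d1 (-0.033) and nr1d2b (-0.0054), and without the libraries standing apart for nr1d1 (-0.035), tefa (0.10), dbpa (-0.013) and dbpb (-0.0401). Limma weights also put nr1d4b at 0.26, tefb at 0.41, dbpa at 0.14, dbpb at 0.016 and ciartb at 0.42. In contrast, nr1d4a was higher with limma weights, at 1.76, and without the libraries standing apart, at 1.89, than in the main fit, at 1.51. Leaving out 1 library gave -0.11 to 0.47 for nr1d1, -0.061 to 0.18 for nr1d2b and -0.0803 to 0.36 for dbpb. At the high dose nr1d2b ran from -0.048 to 0.13 with 1 library left out. Between the doses limma weights gave 0.078 for nr1d2b, 0.15 for nr1d4b, 0.20 for dbpa and 0.33 for ciartb. Without the libraries standing apart the values were 0.086 for nr1d2b, 0.21 for nr1d4b, -0.17 for tefa, 0.28 for dbpa and 0.47 for ciartb. With 1 library left out they ran from -0.032 to 0.55 for nr1d1, -0.12 to 0.086 for nr1d2b, -1.20 to 0.22 for nr1d4b, -0.17 to 0.59 for tefa, -0.56 to 0.28 for dbpa, -0.023 to 0.42 for dbpb and -0.39 to 0.47 for ciartb. The cause of these changes was not tested.

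Whether the replicate numbers shared by the groups pair the libraries is not given in the labels. Over 10 pairs of equal number, r of deviations from the group means ran from -0.26 to 0.26, with a median of 0.056. Over 37 other pairs it ran from -0.33 to 0.31, with a median of -0.014. These ranges overlap and cannot settle the question. With the replicate block, 0 of the 10 genes and 0 of all genes tested were called in each comparison. At an unadjusted p under 0.05 in edgeR, 1 of the 10 was then higher at the low dose (449 of 18811 genes). The count was 0 at the high dose (196 of 18618 genes) and 0 between the doses (316 of 18786 genes). The block turned the sign of nr1d2b at the high dose (-0.0299) and, between the doses, of nr1d2b (0.024), nr1d4b (0.041), dbpa (0.082) and ciartb (0.25), and put tefa at -1.11 at the low dose. The planned promoter motif search was not run, as no sequence was used here. Few counts limit nr1d4a, which had 8 counts in 1 control.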
